A study of Mus musculus with 12 samples.

Results

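The nuclear genes of the oxidative phosphorylation system were followed in mouse liver. A gene counted as a member when its symbol began with Nduf, Uqcr, Cox4i, Cox5, Cox6, Cox7, Cox8 or Atp5, or was Sdha, Sdhb, Sdhc or Sdhd. The rule used names and not measured values, and it found 89 of the 19938 genes on the array. By the prefix of the symbol 43 belonged to complex I (Nduf), 4 to complex II (Sdh), 8 to complex III (Uqcr), 17 to complex IV (Cox) and 17 to complex V (Atp5). The prefixes also catch genes that are not subunits of the liver enzymes. There were 7 assembly factors of complex I (Ndufaf1 to Ndufaf7), 8 isoforms best known from other tissues (Cox4i2, Cox6a2, Cox6b2, Cox7a1, Cox7b2, Cox8b, Cox8c and Ndufa4l2) and 1 factor that helps join complexes into supercomplexes (Cox7a2l). The remaining 73 were subunits of the liver enzymes. No member was removed by a filter on low values. Ndufb4 and Cox7c also fit the rule by name, but their probe sets carry several symbols, so they were not counted.

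The animals were male C57BL/6N mice. WT mice were wild type, and KI mice carried 2 copies of the Lmna G609G knock-in allele. The knock-in leads to progerin, the shortened lamin A of Hutchinson-Gilford progeria, and the mutation is carried in every cell, not only in hepatocytes. The feed was the control diet (CD) or one low in methionine (MR), given from 7 weeks of age, and liver was taken at 110 days after 6 hours without food. This made the 4 groups WT_CD, WT_MR, KI_CD and KI_MR with 3 arrays each. Whether every array came from its own animal is not stated in the labels. The p-values therefore describe the spread between samples, part of which may be technical.

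Oxidative phosphorylation takes place in the inner mitochondrial membrane. Complexes I and II feed electrons from NADH and succinate into coenzyme Q, complex III passes them to cytochrome c, and complex IV hands them to oxygen. Complexes I, III and IV pump protons, and complex V, the ATP synthase, uses the proton gradient to make ATP. Most subunits are encoded in the nucleus, and several subunits of complex IV have a liver type and a heart and muscle type. The transcription factors NRF1, GABP (an ETS factor), YY1 and the estrogen-related receptors (ERR) are known regulators of these genes.

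Values are deposited intensities on a linear scale. The median over all probe sets lay between 82 and 90 units on every array. The intensity of a probe set also depends on its sequence, so levels were compared between arrays and not between genes. The exceptions are the leaving out of dim genes and the choice of genes of like level. A change is given as a log2 fold change with its SE, from a single limma model of all genes and arrays (n = 3 arrays per group), and the adjusted p is Benjamini-Hochberg over 19938 genes with a threshold of 0.05. The 7 hepatocyte markers summed to between 63165 and 79705 units, so all 12 arrays carried the tissue named on the label. Bulk liver cannot separate fewer cells of a type from less RNA per cell. A pair of KI_MR arrays stood apart for the genes described here. KI_MR replicate 2 carried transcripts of skeletal muscle and KI_MR replicate 3 had low levels of many members. The main medians and counts of members that include KI_MR replicate 3 are also given without it, and the muscle-type isoforms without KI_MR replicate 2. Medians and counts of the other gene lists are given only with all arrays.

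The stretch of 250 bases before the transcription start was searched in 78 RefSeq windows (GRCm38.p6), which covered 73 of the 89 members. The NRF1 core GCATGCGC was present on either strand in 9 of the 78 windows, or 11.5%, against 2.26% of 32851 windows of all genes and 2.93% of 21263 windows of protein-coding genes. The ETS letters CCGGAAGT were found in 3.85% of member windows, 2.88% of all windows and 3.79% of those of protein-coding genes. In the same order the YY1 letters AAGATGGC stood in 1.28%, 1.56% and 1.5%, and the ERR letters AAGGTCA in 5.13%, 4.08% and 3.59%. The amino acid response letters TGATGNAA, searched because the diet lowers an essential amino acid, were in 0 of the 78 member windows. They were in 3.45% of all windows and 3.18% of those of protein-coding genes. The 9 genes with the NRF1 letters were Ndufa6, Ndufa8, Ndufa11, Ndufaf4, Sdhb, Cox6a1, Atp5g2, Atp5k and Atp5l. A match is a description of the letters and does not show that a factor binds there. One window is shown for each of the complexes I, II, IV and V, with the searched letters in capitals. In 3 of these 4 the NRF1 letters read on both strands at once as a run of 10 bases.
Ndufa11, chr17:56717512-56717761, plus strand: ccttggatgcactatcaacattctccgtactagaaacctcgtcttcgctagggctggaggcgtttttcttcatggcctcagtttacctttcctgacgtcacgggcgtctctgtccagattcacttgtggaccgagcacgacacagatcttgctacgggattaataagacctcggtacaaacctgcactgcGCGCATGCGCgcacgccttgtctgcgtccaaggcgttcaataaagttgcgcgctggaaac
Sdhb, chr4:140961021-140961270, plus strand: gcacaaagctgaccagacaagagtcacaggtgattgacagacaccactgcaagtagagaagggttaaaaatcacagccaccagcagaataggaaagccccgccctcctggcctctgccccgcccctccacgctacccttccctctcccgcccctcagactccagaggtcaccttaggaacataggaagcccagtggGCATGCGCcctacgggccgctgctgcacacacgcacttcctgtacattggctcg
Cox6a1, chr5:115348959-115349208, minus strand: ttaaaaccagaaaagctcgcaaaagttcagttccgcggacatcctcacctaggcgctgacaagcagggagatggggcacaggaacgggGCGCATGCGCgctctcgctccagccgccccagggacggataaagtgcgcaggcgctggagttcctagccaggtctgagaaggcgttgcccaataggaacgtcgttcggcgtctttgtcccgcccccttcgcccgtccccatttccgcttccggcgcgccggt
Atp5k, chr5:108434400-108434649, minus strand: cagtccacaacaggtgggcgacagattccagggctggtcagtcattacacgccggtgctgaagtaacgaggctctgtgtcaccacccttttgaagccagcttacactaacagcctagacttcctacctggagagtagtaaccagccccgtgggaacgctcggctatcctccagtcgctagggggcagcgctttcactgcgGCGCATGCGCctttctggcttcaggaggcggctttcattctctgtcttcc

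The next windows belong to genes named in the comparisons below. Ndufaf1, Ndufs6 and Atp5j passed the limma test only for effects averaged over genotypes or diets, which were added after the values were seen. These calls were lost in 11, 9 and 10 of the 12 fits that left out 1 array. Cox7a1 and Cox8b are muscle-type isoforms. A further muscle-type isoform, Cox6a2, had no window. Only the Atp5j window holds one of the searched motifs, that of YY1. A further Atp5j window at an earlier start holds none.
Ndufaf1, chr2:119662835-119663084, minus strand: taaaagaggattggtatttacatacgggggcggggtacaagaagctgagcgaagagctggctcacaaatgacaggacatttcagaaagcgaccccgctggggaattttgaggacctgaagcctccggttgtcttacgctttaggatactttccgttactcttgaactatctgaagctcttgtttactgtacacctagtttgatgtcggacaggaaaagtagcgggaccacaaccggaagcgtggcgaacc
Ndufs6, chr13:73328483-73328732, minus strand: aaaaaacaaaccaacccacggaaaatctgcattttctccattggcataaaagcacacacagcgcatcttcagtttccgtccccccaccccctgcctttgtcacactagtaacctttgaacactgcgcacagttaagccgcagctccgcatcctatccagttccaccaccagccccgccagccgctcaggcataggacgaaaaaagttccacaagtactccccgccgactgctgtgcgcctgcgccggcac
Atp5j, chr16:84834977-84835226, minus strand: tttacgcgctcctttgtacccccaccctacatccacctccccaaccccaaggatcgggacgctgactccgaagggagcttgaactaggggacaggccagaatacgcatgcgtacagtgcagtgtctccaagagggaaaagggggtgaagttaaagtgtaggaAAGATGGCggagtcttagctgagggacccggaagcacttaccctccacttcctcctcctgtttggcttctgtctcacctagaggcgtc
Cox7a1, chr7:30183921-30184170, plus strand: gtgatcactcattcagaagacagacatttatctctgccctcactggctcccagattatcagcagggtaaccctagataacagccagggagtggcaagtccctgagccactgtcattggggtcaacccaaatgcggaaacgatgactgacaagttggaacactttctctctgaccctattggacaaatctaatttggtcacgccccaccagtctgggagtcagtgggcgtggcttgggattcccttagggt
Cox8b, chr7:140900447-140900696, minus strand: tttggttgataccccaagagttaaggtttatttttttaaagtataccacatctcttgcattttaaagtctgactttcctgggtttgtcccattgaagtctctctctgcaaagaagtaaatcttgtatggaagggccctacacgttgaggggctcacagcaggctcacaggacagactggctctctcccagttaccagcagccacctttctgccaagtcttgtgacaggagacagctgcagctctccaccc

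Across all members the changes were small. In the comparison of KI_CD with WT_CD the median log2 fold change of the 89 members was -0.021, beside -0.025 for all genes, and 55 members lay below 0. In WT_MR against WT_CD it was -0.016 beside -0.004, with 52 below 0. Neither of these medians kept its sign under every setting. Median centring turned them to 0.005 and 0.006 (41 and 40 members below 0), and without WT_CD replicate 1 they were 0.01 and 0.027. Quantile normalization gave -0.043 for the former and 0.013 for the latter. The median was lower where KI_MR took part, at -0.097 beside -0.017 for all genes in KI_MR against KI_CD (71 below 0), and at -0.102 beside -0.045 in KI_MR against WT_MR (69 below 0). The interaction, which is the diet effect in KI minus the diet effect in WT, had a median of -0.076 beside -0.014. It called no gene, so no difference between the diet effects in WT and KI is shown for any member. Of the 89 members 82 lay in the brighter 50% of genes. The 2669 genes within the middle 50% of the members' levels had medians of 0.049 in KI_CD against WT_CD and 0.003 in WT_MR against WT_CD. They had -0.035 in KI_MR against KI_CD, 0.005 in KI_MR against WT_MR and -0.045 for the interaction. The members' median was below that of these genes in each of these contrasts, without a test.

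No member passed the limma test in any of these 5 contrasts. Over all genes the test called 0.0802% in KI_CD against WT_CD, 0.176% in KI_MR against KI_CD, 0.326% in WT_MR against WT_CD, 0.471% in KI_MR against WT_MR and 0.0% for the interaction. At an unadjusted p under 0.05, 13 members were lower in KI_MR than in KI_CD, or 14.6%, where 5.08% of all genes were, and 2 were higher (2.7% of genes). In KI_MR against WT_MR 18 members were lower, or 20.2%, where 7.59% of all genes were, and 2 were higher (6.55% of genes). With KI_MR replicate 3 left out these fell to 4 members (4.49%, beside 3.23% of genes) and 11 members (12.4%, beside 4.36%). The count of 13 was 7 without KI_CD replicate 1 (7.87%, beside 5.36% of genes) and 8 without KI_CD replicate 3 (8.99%, beside 4.95%). It was 20 without KI_MR replicate 2 (22.5%, beside 4.89%). Quantile normalization left 6 lower members in KI_MR against KI_CD (6.74%, beside 4.12% of genes), with a median of -0.048, and 17 in KI_MR against WT_MR (19.1%, beside 7.02%). The other contrasts had few such members. There were 1 higher and 2 lower for KI_CD against WT_CD (6.48% and 4.73% of genes), and 1 higher and 3 lower for WT_MR against WT_CD (4.64% and 3.55%). The interaction had 1 higher and 5 lower (1.09% and 3.04%), and its lower count ran from 2 to 11 with 1 array left out at a time. That count was 2 without KI_MR replicate 3 (2.25%, beside 2.24% of genes) and 11 without KI_MR replicate 2 (12.4%, beside 2.85%).

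Some sums of markers of other cells also differed between KI_MR and WT_MR. The summed level of the 8 stellate cell and fibroblast markers was 6853 to 7622 units in KI_MR and 5192 to 5823 in WT_MR. Of these, Dcn (4241 to 4289 against 2942 to 3321) and Acta2 (254 to 695 against 131 to 174) were higher in KI_MR without overlap. Col3a1 was lower without overlap (141 to 148 against 157 to 184), and the other markers of this list overlapped. The 6 markers of T, B and NK cells summed to 355 to 387 in KI_MR and 413 to 470 in WT_MR, and the 5 of brown adipocytes to 765 to 913 and 1039 to 1646. Taken singly, each of the 6 overlapped. Among the brown adipocyte markers only Elovl3 was without overlap, at 32 to 63 against 171 to 874. The sums of the hepatocyte, Kupffer cell, endothelial cell, cholangiocyte, neutrophil, erythroid and muscle lists overlapped between these groups. Between KI_MR and KI_CD every list overlapped. The part of these cells in the lower members was not tested.

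The 18 members lower in KI_MR than in WT_MR came from 4 of the complexes. They were Ndufa2, Ndufaf4, Ndufb2, Ndufs3, Ndufs5, Ndufs6 and Ndufs8 of complex I, Uqcr11 of III, Cox6b1, Cox7a2, Cox7b2 and Cox8a of IV, and Atp5e, Atp5g3, Atp5j, Atp5j2, Atp5k and Atp5mpl of V. The higher ones were Ndufa6 and Cox7a1. The 13 lower in KI_MR than in KI_CD were Ndufa1, Ndufa2, Ndufa8, Ndufaf1, Ndufaf7, Ndufb2, Cox5b, Cox6b1, Cox7a2, Cox8a, Atp5j2, Atp5k and Atp5mpl, and Cox6a2 and Cox7a1 were higher. These 2 comparisons share the KI_MR arrays, so the genes common to both are not independent evidence.

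Counting arrays gave a like picture. In KI_MR against WT_MR 18 members had all 3 KI_MR values under all 3 WT_MR values (8.82% of all genes did) and 4 had them all above (7.5%). In KI_MR against KI_CD 12 were lower without overlap (6.99%) and 2 higher (3.67%). With the 2 KI_MR arrays left after dropping replicate 3, 19 lay under WT_MR (11.1% of genes) and 14 under KI_CD (9.71% of genes), and with fewer arrays groups separate more easily. In KI_CD against WT_CD the counts were 5 lower (10.4%) and 1 higher (8.57%), and in WT_MR against WT_CD 4 lower (5.17%) and 4 higher (6.35%).

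The medians of the complexes lay close together. In KI_MR against KI_CD the median was -0.087 for complex I, -0.122 for II, -0.126 for III, -0.045 for IV and -0.11 for V. In KI_MR against WT_MR the medians of I to V were -0.124, -0.095, -0.075, -0.114 and -0.075. Without KI_MR replicate 3 the medians of I to V were -0.013, -0.071, -0.049, -0.033 and -0.063 against KI_CD, and -0.068, -0.038, -0.031, 0.005 and -0.049 against WT_MR. The SD of a complex's median between arrays of 1 group was 0.078 for I, 0.097 for II, 0.073 for III, 0.034 for IV and 0.069 for V. This SD includes shifts that the complexes share on an array, so it does not measure the spread of a difference between complexes. No test between complexes was made. The value for complex IV depends on what is counted. Its 10 subunits of liver, with Ndufa4 placed there as a complex IV subunit, had a median of -0.169 in KI_MR against KI_CD with 9 of 10 below 0. Leaving only Cox6a2, Cox7a1 and Cox8b out of the 17 gave -0.072, so most of that difference came with the other genes that were left out or added. In the comparisons without KI_MR all complex medians lay between -0.082 and 0.016.

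**Figure D1:**
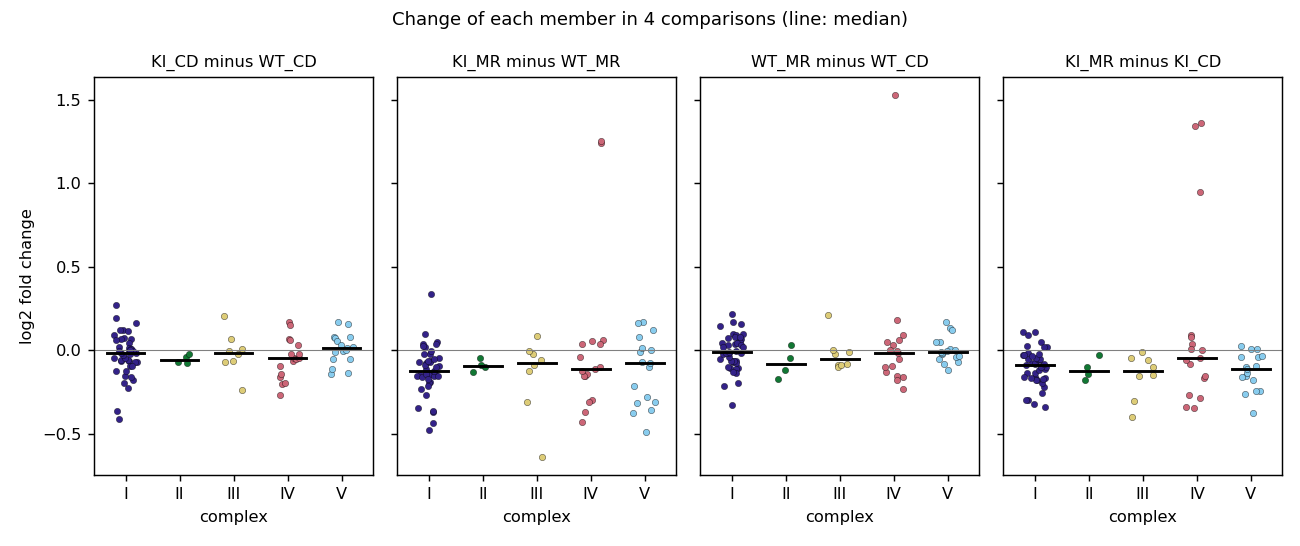
Each point is 1 of the 89 members and the vertical axis gives its log2 fold change in 4 comparisons, by complex I to V. The black lines are medians. Most points lie within 0.5 of 0, and those near or above 1 are Cox6a2, Cox7a1 and Cox8b of complex IV.

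KI_MR replicate 3 was the lowest of the 12 arrays for 43 of the 89 members, or 48.3%, where it was lowest for 15.2% of all genes. The median deviation of the members from their own mean over all arrays was -0.193 there, beside -0.05 for all genes. By complex it was -0.193 for I, -0.175 for II, -0.21 for III, -0.089 for IV and -0.225 for V, so each complex took part. The 77 mitochondrial ribosomal proteins had -0.15 on this array and the 61 cytosolic ribosomal proteins 0.06. The 5 cholangiocyte markers summed to 766 units on this array and to 351 to 568 on the other 11, with Krt19, a bile duct keratin, at 412 against 70 to 204. Krt7 was also highest there, at 130, while Epcam (66), Sox9 (136) and Cftr (22) were within the range of the other arrays. Acta2, the smooth muscle actin, read 695 beside 254 and 259 on the other KI_MR arrays, and 1337 on KI_CD replicate 1. The stellate cell and fibroblast list that holds Acta2 summed to 7226 on this array, within the range of the others. The 2 erythroid markers summed to 285 there and to 495 to 1385 elsewhere. RNA quality was not given for any array, and neither its part nor that of these cells in the low values was tested. Without this array the member median was -0.036 in KI_MR against KI_CD, -0.05 in KI_MR against WT_MR and -0.032 for the interaction. In the same order 60, 59 and 49 of the 89 members then lay below 0.

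**Figure D2:**
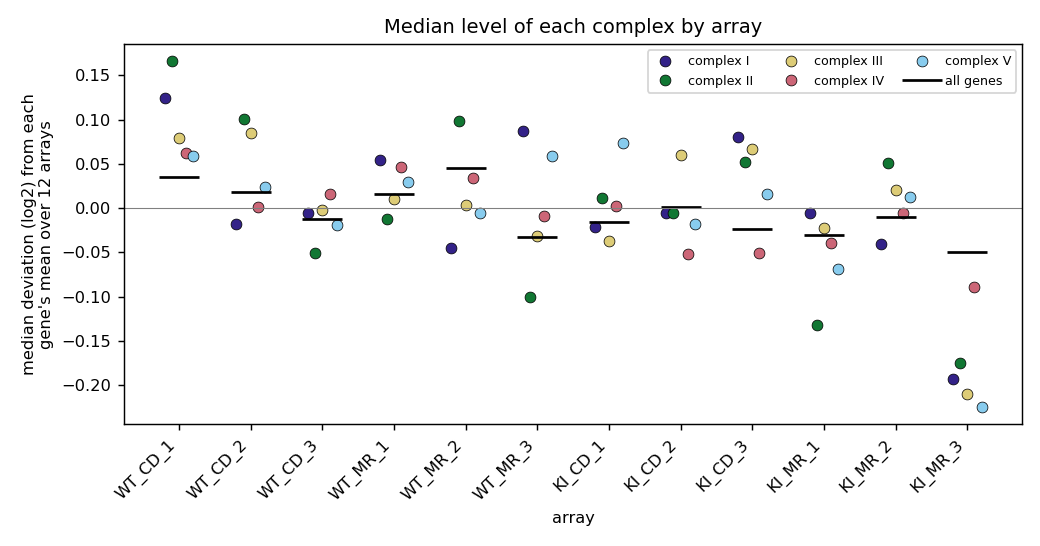
For each of the 12 arrays the points give the median deviation (log2) of complexes I to V from each gene's mean over all arrays, and the black bars give it for all genes. KI_MR_3 lies lowest, with complexes between -0.225 and -0.089.

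Set against the mean of the other arrays of its group, 12 members were more than 0.5 (log2) lower in KI_MR replicate 3, or 13.5%, where 1.42% of all genes were. Uqcr11, a small subunit of complex III, was the furthest apart of those not raised in KI_MR replicate 2. It read 2787, 2743 and 2365 in WT_CD, 2588, 2717 and 2573 in WT_MR, 2231, 2406 and 2044 in KI_CD, and 2413, 2052 and 971 in KI_MR. The value of 971 was the lowest, and the remaining KI_MR arrays also lay below WT_MR. The change in KI_MR against WT_MR was -0.64 ± 0.26 (limma, adjusted p = 0.29), and -0.24 ± 0.11 without replicate 3. A further probe set of Uqcr11 gave -0.61 there. In replicate 3 against the mean of the other KI_MR arrays the difference was -1.20 for Uqcr11 and -0.85 for Ndufa11, an accessory subunit of complex I, and Atp5e, a small subunit of complex V, had -0.69, Cox7a2 -0.61 and Cox6a1 -0.60. Ndufaf3, Ndufb7, Ndufs5 and Ndufb2 had between -0.56 and -0.51. Cox8b, Cox6a2 and Cox7a1 are among the 12 because of their high values in replicate 2.

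**Figure D3:**
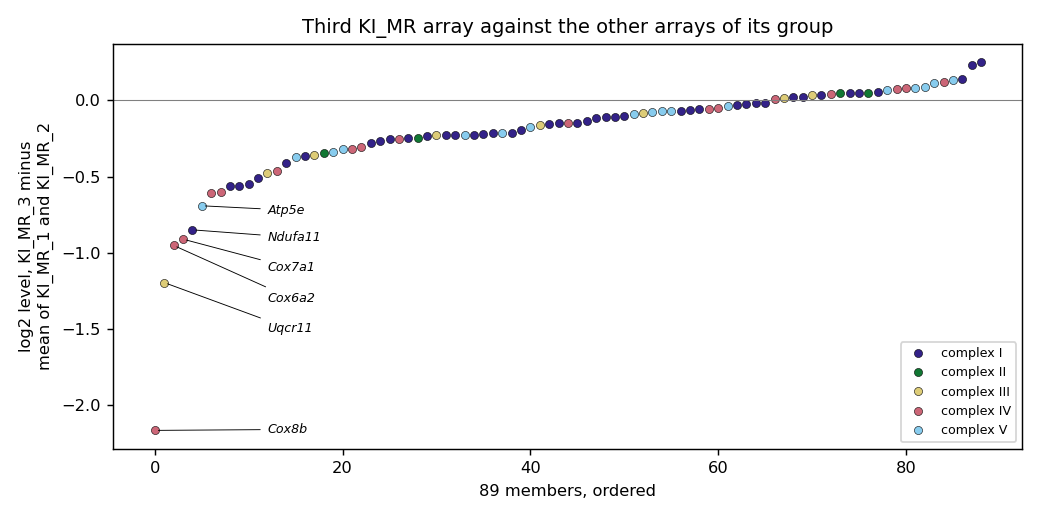
The 89 members are ordered by the log2 level in KI_MR_3 minus the mean of KI_MR_1 and KI_MR_2, coloured by complex. Of these, 66 lie below 0 and 12 below -0.5.

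The contrasts averaged over the other factor use 6 arrays against 6, and they were added after the values were seen. The average diet effect is the mean of the diet effects in WT and KI, and limma called 1.21% of all genes for it, 0.607% higher and 0.602% lower. It called 2 members. Cox6a2 rose and Ndufaf1 fell. The average genotype effect called 2.81% of all genes, 1.98% higher and 0.838% lower in KI. It called 2 members, Ndufs6 and Atp5j, both lower. At an unadjusted p under 0.05 there were 1 member higher and 4 lower for diet (4.78% and 6.09% of genes). For genotype there were 3 higher and 16 lower (10.2% and 11.8%). Without KI_MR replicate 3 the lower counts were 2 for diet (5.02% of genes) and 10 for genotype (7.43%).

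**Figure D4:**
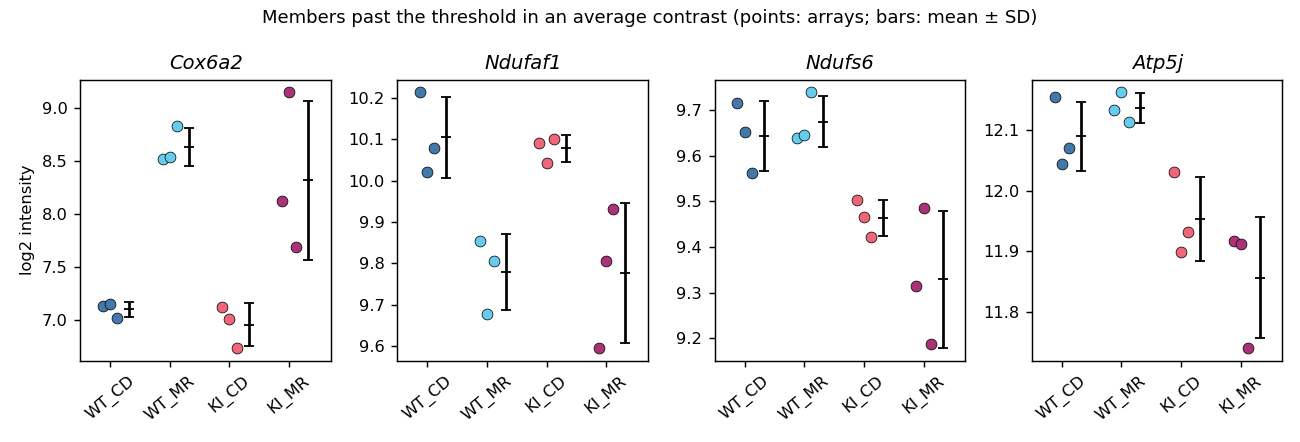
Log2 intensity of Cox6a2, Ndufaf1, Ndufs6 and Atp5j on each array, by group, with the mean ± SD of 3 arrays beside the points. Cox6a2 and Ndufaf1 separate by diet, and Ndufs6 and Atp5j by genotype.

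In complex I, Ndufaf1 encodes an early assembly factor of the membrane arm. It read 1187, 1039 and 1082 in WT_CD and 926, 819 and 895 in WT_MR, then 1091, 1054 and 1098 in KI_CD and 774, 895 and 976 in KI_MR. Every MR array lay below every CD array in both genotypes. The average diet effect was -0.31 ± 0.06 (1.24-fold lower, limma, adjusted p = 0.043), with -0.33 ± 0.09 in WT and -0.30 ± 0.09 in KI. Leaving out 1 array at a time ended this call in 11 of 12 fits, with adjusted p-values up to 0.11 and values between -0.35 and -0.27.

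Ndufs6, a zinc-binding subunit of complex I needed late in its assembly, read 841, 804 and 756 in WT_CD and 797, 801 and 854 in WT_MR. In KI_CD it read 725, 707 and 686 and in KI_MR 637, 717 and 583. All 6 KI arrays lay below all 6 WT arrays. The average genotype effect was -0.26 ± 0.06 (1.20-fold lower, limma, adjusted p = 0.038), with -0.18 ± 0.08 on CD and -0.34 ± 0.08 on MR. The call was lost in 9 of 12 fits that left out 1 array, with adjusted p-values between 0.024 and 0.097.

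Other members of complex I passed no adjusted test. Ndufa2, a small subunit of the matrix arm, read 655, 614 and 523 in KI_MR, under the 744 to 915 of WT_MR and the 697 to 771 of KI_CD. Its change was -0.44 ± 0.11 against WT_MR (limma, adjusted p = 0.11) and -0.32 ± 0.11 against KI_CD, or -0.34 ± 0.11 and -0.23 ± 0.11 without KI_MR replicate 3. Ndufaf7, a methyltransferase that modifies an early assembly intermediate, read 140, 135 and 139 in KI_CD, above the 112 to 119 of WT_CD, and 116, 120 and 120 in KI_MR. It was the member with the most positive change in KI_CD against WT_CD, at 0.27 ± 0.07 (limma, adjusted p = 0.19). Ndufaf4, another assembly factor, was lower in KI on both diets, at -0.41 ± 0.13 on CD and -0.37 ± 0.13 on MR, but its KI range of 229 to 331 overlapped the WT range of 311 to 401. Ndufa3, an accessory subunit, differed by -0.20 ± 0.09 in WT_MR against WT_CD. Ndufs7, the subunit that carries the last iron-sulfur cluster before coenzyme Q, ranged from 5466 to 6952 over the 12 arrays with no change over 0.11 in the 4 comparisons. Ndufaf5, an assembly factor, stayed between 45 and 56 units, with an SD of 0.081 (log2) within groups.

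The remaining 33 members of complex I, among them the catalytic core subunits Ndufs1, Ndufs3 and Ndufv1, ranged from -0.36 to 0.19 in KI_CD against WT_CD and from -0.21 to 0.22 in WT_MR against WT_CD, and 31 of the 33 were within 0.2 of 0 in each. Against WT_MR, KI_MR ranged from -0.48 (Ndufs5) to 0.34 (Ndufa6), with 29 of the 33 below 0. Ndufs1, which receives electrons from the NADH-binding part, read 620 to 793 in WT_CD, 634 to 705 in WT_MR, 662 to 707 in KI_CD and 605 to 652 in KI_MR. Ndufv1, the NADH-binding subunit itself, read 1596 to 1931, 1704 to 1853, 1702 to 1873 and 1779 to 1825 in the same order, and the groups overlapped. The lowest adjusted p among these 33 was 0.21 over the 5 contrasts and 0.098 for the average effects (limma).

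Complex II is made of 4 subunits, and all of them are members. Sdha, the flavoprotein that oxidises succinate, read 3782, 4088 and 3474 in WT_CD, 3217, 3657 and 3197 in WT_MR, 3538, 3476 and 3746 in KI_CD, and 2907, 3548 and 3327 in KI_MR. The diet groups overlapped, with changes of -0.17 ± 0.09 in WT and -0.14 ± 0.09 in KI. Sdhb, the iron-sulfur subunit, had -0.12 ± 0.10 in WT and -0.18 ± 0.10 in KI. The membrane anchors Sdhc and Sdhd lay between -0.10 and 0.03 in both diet comparisons. By genotype all 4 subunits had values between -0.13 and -0.03, within 1 or 2 SE of 0. No subunit of this complex passed the limma test in any contrast. Sdha had an unadjusted p of 0.036 for the average diet effect.

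In complex III, Uqcrfs1 encodes the Rieske iron-sulfur protein, which takes electrons from coenzyme Q. It read 624, 736 and 736 in WT_CD, 747, 817 and 858 in WT_MR, 678, 924 and 823 in KI_CD, and 703, 750 and 522 in KI_MR. WT_MR lay above WT_CD without overlap, at 0.21 ± 0.15, while KI_MR against KI_CD was -0.30 ± 0.15. The interaction was -0.51 ± 0.21 (limma, adjusted p = 1.0) and was -0.35 ± 0.18 without KI_MR replicate 3, the array with the value of 522. The core subunit Uqcrc1 ranged from 2056 to 2442 and the hinge protein Uqcrh from 2151 to 2807. Uqcrh was -0.15 ± 0.08 in KI_MR against KI_CD and -0.09 ± 0.08 in WT_MR against WT_CD. Uqcrb ranged from 4841 to 6887 with no change over 0.09 in size in the probe set used here. Of its further 2 probe sets, one had -0.18 in KI_MR against WT_MR.

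In complex IV, Cox6a2 encodes the heart and muscle type of a nuclear-encoded subunit, and Cox6a1 encodes the liver type. Cox6a2 read 141, 142 and 130 in WT_CD and 367, 371 and 457 in WT_MR. In KI it read 140, 129 and 107 on CD and 280, 567 and 206 on MR. Every MR array lay above every CD array, in both genotypes. The average diet effect was 1.44 ± 0.20, or 2.72-fold (limma, adjusted p = 0.0065), and this call held in each of the 20 alternative fits counted here, with adjusted p-values from 0.00031 to 0.025. The change was 1.53 ± 0.28 in WT (limma, adjusted p = 0.053, called in 9 of 21 alternatives with a range of 0.00076 to 0.19) and 1.36 ± 0.28 in KI (limma, adjusted p = 0.11, called in 2 of 21 with a range of 0.024 to 0.46). The interaction for this gene was -0.17 ± 0.40.

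The highest KI_MR value of Cox6a2, 567, came from KI_MR replicate 2, the array with muscle transcripts. Without that array the change was 0.95 ± 0.16 in KI (limma, adjusted p = 0.040) and 1.53 ± 0.14 in WT (limma, adjusted p = 0.0018). The WT_MR arrays carried no raised muscle markers, and the sum of the 7 muscle markers there was 616 to 701 units, beside 659 to 1054 in WT_CD. Among the 5 brown adipocyte markers, Ucp1 read 30 to 36, Cidea 30 to 38 and Adipoq 30 to 46 over all 12 arrays. Pparg, which hepatocytes can also express, was higher in WT_MR (675 to 769) than in WT_CD (237 to 458), as Cox6a2 was, and read 232 to 1044 in KI_CD and 603 to 775 in KI_MR. Elovl3, a fatty acid elongase also made in liver, went the other way, from 1766 to 2365 in WT_CD to 171 to 874 in WT_MR, and was 38 to 150 in KI_CD and 32 to 63 in KI_MR. The sum of the 5 was lower in WT_MR (1039 to 1646) than in WT_CD (2106 to 2933). The part of such cells in the Cox6a2 values was not tested. Cox6a1 did not follow its muscle-type partner. It differed by -0.09 ± 0.20 in WT and -0.34 ± 0.20 in KI with diet. Whether the Cox6a2 probe set reads any other transcript was not tested.

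KI_MR replicate 2 stood out for genes of skeletal muscle. The skeletal actin Acta1 read 3609 there and 125 to 335 on the other 11 arrays, the muscle creatine kinase Ckm 1694 against 108 to 188, and the fast troponin Tnnt3 3212 against 118 to 270. Myh4 and Mylpf were raised too, at 457 and 156, while the cardiac Myh6 and Tnni3 read 84 and 64, within the range of the other arrays. The sum of the 7 muscle markers was 9276 units there and 579 to 1054 elsewhere. On the same array Cox8b, the heart and muscle type of a small subunit, read 1232, where the other 11 arrays had 62 to 98. Without this array its change in KI_MR against KI_CD went from 1.34 ± 0.85 to -0.07 ± 0.14.

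Cox7a1, the heart and muscle type of another small subunit, read 513 on that array and 183 and 163 on the other KI_MR arrays. It read 139, 118 and 131 in KI_CD, 124, 120 and 127 in WT_CD, and 113, 105 and 98 in WT_MR. Even without replicate 2 the KI_MR arrays lay above all others, and the change against WT_MR was then 0.72 ± 0.10, or 1.64-fold (limma, adjusted p = 0.024, with 2 KI_MR arrays). With all arrays it was 1.24 ± 0.32 (limma, adjusted p = 0.12, called in 2 of 21 alternatives with a range of 0.011 to 0.29). On those remaining arrays the muscle markers Acta1 (186 and 145) and Ckm (150 and 108) were not above the range of the other groups.

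**Figure D5:**
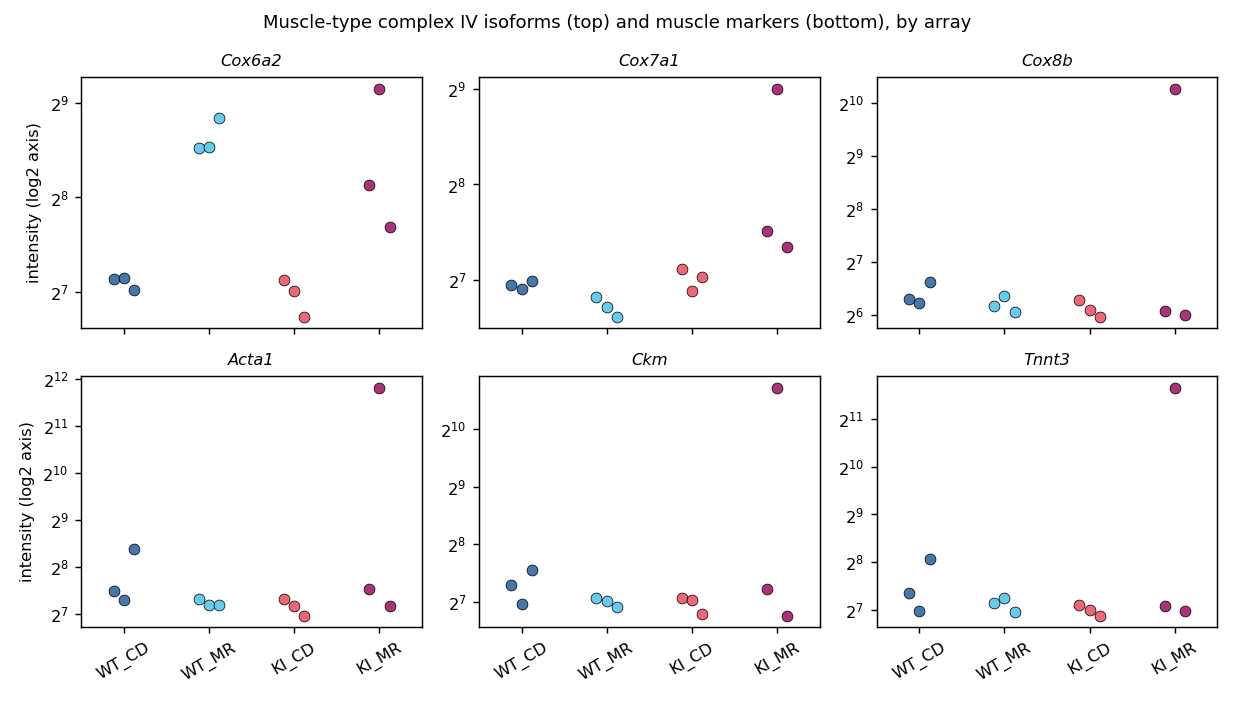
Intensities on a log2 axis for the muscle-type isoforms Cox6a2, Cox7a1 and Cox8b and the muscle markers Acta1, Ckm and Tnnt3, with 3 arrays per group. KI_MR_2 is the highest array in all 6 panels, and in that of Cox6a2 the 3 WT_MR arrays are also high.

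The 10 liver subunits of complex IV counted here, Ndufa4 among them, moved little in the comparisons without KI_MR. Their changes lay between -0.10 and 0.17 in KI_CD against WT_CD, and between -0.15 and 0.06 in WT_MR against WT_CD. Lower values came where KI_MR took part. There the median was -0.169 against KI_CD (9 of 10 below 0) and -0.147 against WT_MR (7 of 10). Without KI_MR replicate 3 these medians were -0.113 and -0.068. Cox4i1, a subunit with a regulatory role, ranged from 1595 to 2174 and differed by 0.17 ± 0.09 in KI_CD against WT_CD. Cox6c ranged from 9454 to 10784 and had one of the smallest spreads, with an SD of 0.04 within groups. It differed by -0.13 ± 0.06 in WT_MR against WT_CD, and a further probe set of it gave -0.07. Cox6b1 and Cox7a2 were lower in KI_MR than in WT_MR, at -0.37 ± 0.12 (limma, adjusted p = 0.21) and -0.43 ± 0.14 (limma, adjusted p = 0.21), or -0.21 ± 0.09 and -0.23 ± 0.09 without KI_MR replicate 3. Both had their lowest value in KI_MR replicate 3, at 2000 and 916, and the remaining KI_MR arrays read 2798 and 2728 for Cox6b1, and 1439 and 1353 for Cox7a2. Those remaining values were still below all WT_MR arrays of Cox6b1 (3027 to 3332) and of Cox7a2 (1514 to 1699). Cox8a read 3082, 3283 and 3358 in KI_MR, under the 3400 to 3704 of WT_MR, with -0.14 ± 0.06. Ndufa4, named for complex I but a subunit of complex IV, had -0.17 ± 0.12 with diet in KI and -0.11 ± 0.12 in WT. Cox7b, a liver subunit, lay between -0.10 and 0.04 in the 4 comparisons. A further probe set of Cox7b lay between -0.13 and -0.09, with the opposite sign in both comparisons with KI_MR. Cox7a2l, the supercomplex factor, had 0.18 in WT_MR against WT_CD and 0.15 in KI_CD against WT_CD, and a further probe set of it gave 0.41 and 0.33 there.

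Cox5a and Cox5b, which sit on the matrix side of the enzyme, completed the liver set counted here. Cox5b read 4204, 3316 and 3641 in KI_CD and 3167, 3366 and 2739 in KI_MR, with overlap between them, and its change was -0.27 ± 0.11 (limma, adjusted p = 0.56). Cox5a read 1145 to 1350 in KI_CD and 960 to 1221 in KI_MR, and the 960 was again KI_MR replicate 3. Cox7c, which was not counted, did not share the lower medians. Its probe sets had 0.0155 to 0.0449 in KI_MR against KI_CD and 0.0291 to 0.0622 against WT_MR.

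The other isoforms best known from testis, lung or hypoxic tissue varied little between groups. Cox4i2 read 66 to 98, Cox6b2 59 to 87, Cox7b2 28 to 34, Cox8c 90 to 137 and Ndufa4l2 59 to 90 over all arrays. No change of these 5 genes was over 0.21 in size in the 4 comparisons. The deposited values hold no detection calls, so whether these genes were detected is unknown.

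In complex V, Atp5j encodes coupling factor 6, part of the stalk that holds the catalytic head of the synthase in place. It read 4555, 4222 and 4302 in WT_CD, 4493, 4581 and 4431 in WT_MR, 4186, 3817 and 3906 in KI_CD, and 3867, 3852 and 3424 in KI_MR. All 6 KI arrays lay below all 6 WT arrays. The average genotype effect was -0.21 ± 0.05 (1.16-fold lower, limma, adjusted p = 0.049), with -0.14 ± 0.07 on CD and -0.28 ± 0.07 on MR. It sat at the threshold, and 10 of the 12 fits that left out 1 array lost the call, with adjusted p-values up to 0.12.

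Atp5g3, which encodes a proton-carrying ring subunit, had -0.31 ± 0.08 in KI_MR against WT_MR (limma, adjusted p = 0.11), and its 3202 to 3786 units in KI_MR lay below the 4186 to 4637 of WT_MR. Without KI_MR replicate 3 it was -0.24 ± 0.08. Atp5mpl, a small membrane subunit, had -0.31 ± 0.10 (limma, adjusted p = 0.18). Atp5k, the e subunit of the membrane part, had -0.38 ± 0.14 both against KI_CD and against WT_MR. Atp5g1, another gene for the ring subunit, moved in opposite directions with diet, at 0.13 ± 0.10 in WT and -0.16 ± 0.10 in KI, and neither passed the test. Atp5l, the g subunit, was 0.16 ± 0.10 higher in KI_MR than in WT_MR. Atp5d, a subunit of the central stalk, ranged from 10033 to 11127 units, with no change over 0.03 in the 4 comparisons.

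Among the 10 remaining members of complex V, Atp5j2, the f subunit of the membrane part, read 2814, 2850 and 2591 in KI_CD, 2450, 2567 and 1986 in KI_MR, and 2857 to 3056 in WT_MR. All KI_MR arrays lay below all WT_MR and KI_CD arrays, with -0.36 ± 0.10 (limma, adjusted p = 0.14) and -0.24 ± 0.10 (limma, adjusted p = 0.55), or -0.24 ± 0.08 and -0.13 ± 0.08 without KI_MR replicate 3. The catalytic subunit Atp5b read 7275 to 8394 over the 12 arrays. In KI_CD against WT_CD and in WT_MR against WT_CD all 10 were within 0.2 of 0.

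Genes that work beside the complexes were read from lists of 38 other assembly factors and electron carriers, 12 genes of coenzyme Q synthesis, 20 mitochondrial biogenesis factors, 21 genes of the tricarboxylic acid cycle and pyruvate dehydrogenase, 77 mitochondrial ribosomal proteins, 19 genes for uncoupling, exchange and chaperones, and 2 mitochondrially encoded subunits. None passed the limma test in the 5 contrasts, either way. At an unadjusted p under 0.05 in KI_MR against WT_MR, where 7.59% of all genes were lower and 6.55% higher, 6 of the 38 factors (15.8%) were lower and 0 higher. Of the 12 coenzyme Q genes 3 were lower and 1 higher, and of the 20 biogenesis factors 2 were lower and 2 higher. In the cycle 4 of 21 genes were lower (19.0%), among the ribosomal proteins 8 of 77 were lower (10.4%) and 1 higher, and in the list of uncoupling, exchange and chaperones 6 of 19 were lower (31.6%) and 2 higher. Neither of the 2 mitochondrially encoded subunits was among them. In KI_MR against KI_CD the medians of the factors (-0.10), the coenzyme Q genes (-0.16) and the mitochondrial ribosomal proteins (-0.11) were below that of all genes (-0.02), as the members' median was. The biogenesis factors, at 0.03, were not. The mitochondrially encoded COX2 and ND3 went the other way, with 0.07 ± 0.11 and 0.11 ± 0.10. All these values include KI_MR replicate 3, where the mitochondrial ribosomal proteins had a median deviation of -0.15, and are not given without it.

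For the average effects 4 genes of these lists passed. Ppara, the nuclear receptor that drives fatty acid oxidation in fasted liver, read 2797 to 3156 in WT_CD, 2045 to 2730 in WT_MR, 2246 to 2365 in KI_CD and 1693 to 1994 in KI_MR. Its average genotype effect was -0.37 ± 0.08 (limma, adjusted p = 0.034). Sod2, the superoxide dismutase of the matrix, read 2865 to 3447 in KI and 3566 to 4166 in WT without overlap, with -0.26 ± 0.06 (limma, adjusted p = 0.034). The matrix chaperone Hspd1 had -0.27 ± 0.06 (limma, adjusted p = 0.047), most of it on MR, where WT_MR read 2991 to 3023 and KI_MR 2129 to 2257. Its partner Hspe1 had -0.55 ± 0.13 in KI_MR against WT_MR (limma, adjusted p = 0.085). Fh1, the fumarase of the cycle, fell with the diet, with an average effect of -0.45 ± 0.09 (limma, adjusted p = 0.034).

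The other genes of these lists that the naming rule picked passed no test. Pdk4, the kinase that shuts off pyruvate dehydrogenase in fasting, read 98 to 114 in WT_CD, 316 to 598 in WT_MR, 142 to 416 in KI_CD and 248 to 799 in KI_MR. Its change in WT was 1.90 ± 0.48 (limma, adjusted p = 0.17), and the highest KI_MR value was on the array with muscle transcripts. Coq4 and Coq8b, which act in coenzyme Q synthesis, had -0.36 ± 0.09 and -0.29 ± 0.11 in KI_MR against WT_MR. Polg, the mitochondrial DNA polymerase, had -0.34 ± 0.10 there. Cox18, a membrane insertase for complex IV, had -0.29 ± 0.09 with diet in WT. Uqcc1, an assembly factor of complex III, had -0.38 ± 0.13 with diet in KI. The ribosomal proteins Mrps26 and Mrps34 were higher in KI_CD than in WT_CD, at 0.37 ± 0.13 and 0.37 ± 0.10.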

How the data were processed

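Total RNA of 12 liver samples was hybridised to Affymetrix mouse gene arrays after biotin labelling, per the labels' protocols. The authors deposited 1 intensity per probe set and array, as whole numbers from 10 to 20042 on a linear scale. How they were background-corrected and scaled was not given in the sources used here. They were analysed as log2, without further scaling. Of 35512 probe sets 21789 had 1 gene symbol, and the probe set with the highest mean was kept for each of 19938 genes. For the 89 members, 17 of them with more than 1 probe set, all 89 matched RefSeq by Entrez identifier. A further 6 probe sets with several symbols were left out, among them all those of Cox7c and Ndufb4. Those of Ndufb4 had -0.0197 and -0.0162 in KI_MR against KI_CD, and -0.2068 and -0.174 against WT_MR.

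One model with 4 group means was fitted with limma 3.58.1 (R 4.3.3), with 8 residual and 3.14 prior degrees of freedom, two-sided, at an adjusted p of 0.05. It was tested on simulated data. Tables used Python 3.11.15, pandas 2.3.3 and numpy 2.4.6, and figures matplotlib 3.10.9.

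The members and gene lists were chosen with earlier results of these data known. Named members are those called in any contrast, the 2 per contrast and complex with the smallest p, the highest and lowest of each complex, the isoform families and complex II. Other members (those low in KI_MR replicate 3, those at an unadjusted p under 0.05, Ndufs1, Ndufv1, Cox5a, Cox5b, Atp5b and Atp5j2) were named after their values were seen. Alternatives covered scaling, dim genes, probe sets, the prior, array weights, a replicate block, the arrays fitted and the members counted. Same-numbered arrays were not paired.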

Additional observations from a re-analysis of the deposited data

How the results depend on the processing

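With 3 arrays per group, and no depth or detection calls in the deposited values, the number of arrays limits every value. Array weights are left out of counts of alternatives, since 1 array took a far larger weight than any other. Cox6a2 kept its average diet call in the other 20, whereas Ndufaf1 was called in 5, Ndufs6 in 9 and Atp5j in 4 of 20. The Cox6a2 change in WT_MR against WT_CD lay just over the threshold, and 1 member passed there under quantile normalization, median centring, without the dimmest 25% or 50% of genes, and with only the arrays compared. The array weights put 16.7 on WT_MR replicate 1 and at most 1.45 on any other array. With them 1 member was called in KI_MR against KI_CD, 6 in WT_MR against WT_CD, 22 in KI_MR against WT_MR and 15 for the average genotype effect. The weights changed the shares over all genes too. At an unadjusted p under 0.05, 24.6% of genes were lower in KI_MR against WT_MR in place of 7.59%. For the average genotype effect it was 25.1% in place of 11.8%. Without KI_CD replicate 1 and KI_MR replicate 2 together, a choice made after seeing the data, 1 member passed in KI_MR against KI_CD, 1 in WT_MR against WT_CD, 3 in KI_MR against WT_MR and 1 for the average diet effect. For the average diet effect 1 member passed under median centring, 1 under the trend and robust prior, and 0 when assembly factors and isoforms of other tissues were left out, since both called members are among those. For the average genotype effect 0 passed under median centring and 0 under the trend and robust prior. The cause was not tested for these.

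Deviations of same-numbered arrays correlated above 0.1 in 9 of 18 pairs (r from -0.059 to 0.244), and those of differently numbered arrays in 4 of 36. Same-numbered arrays thus tended to deviate together, but not in every pair, and the labels name nothing shared, so the numbers were not used as a block. With the replicate block 1 member was called for the average diet effect, Cox6a2, and Ndufaf1 had -0.31 (limma, adjusted p = 0.056), while 3 members were called for the average genotype effect in place of 2 and 0 in each of the 5 planned contrasts. At an unadjusted p under 0.05 the block gave 16 lower members in place of 13 in KI_MR against KI_CD (6.32% of genes in place of 5.08%). In KI_MR against WT_MR it gave 22 in place of 18 (10.5% of genes in place of 7.59%). For the average diet effect 9 were lower in place of 4 (7.46% of genes in place of 6.09%). The interaction had 8 lower in place of 5 (3.75% of genes in place of 3.04%). For the average genotype effect 6 were higher in place of 3 (11.4% of genes in place of 10.2%). In WT_MR against WT_CD 2 were higher in place of 1 (5.37% of genes in place of 4.64%).

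Leaving out 1 array at a time gave between 0 and 1 members called in KI_MR against KI_CD, in WT_MR against WT_CD and in KI_MR against WT_MR. It gave 1 to 2 for the average diet effect and 0 to 5 for the average genotype effect, with 5 without WT_MR replicate 3. In that fit 21.3% of all genes were lower at an unadjusted p under 0.05, in place of 11.8%. In KI_MR against KI_CD the median of all members ranged from -0.135 (without KI_MR replicate 2) to -0.036 (without KI_MR replicate 3), that of complex I from -0.135 to -0.013, that of II from -0.2 to -0.071, that of III from -0.152 to -0.049 and that of V from -0.186 to -0.058. The interaction median of complex V ranged from -0.136 to -0.044. The median of complex IV moved most relative to its small spread. Leaving out 1 array it ranged from -0.085 to -0.017 in KI_CD against WT_CD, from -0.07 to -0.006 in KI_MR against KI_CD, from -0.047 to 0.032 in WT_MR against WT_CD and from -0.175 to 0.005 in KI_MR against WT_MR. It ranged from -0.123 to -0.021 for the interaction, from -0.087 to -0.033 for the average diet effect and from -0.124 to -0.063 for the average genotype effect. In KI_MR against KI_CD it was -0.106 without the dimmest 50% and -0.169 with liver subunits alone. In WT_MR against WT_CD it was 0.023 with array weights and -0.055 with liver subunits alone. In KI_MR against WT_MR it was -0.064 under quantile normalization, -0.151 with array weights and -0.158 without both arrays named above. Quantile normalization gave -0.059 for the interaction and -0.053 for the average genotype effect, which was -0.041 without the dimmest 50%. The average diet median was -0.084 without the dimmest 50% and also without both arrays, -0.075 with probe sets averaged and -0.107 with liver subunits alone. No member's value that passed the test turned in direction under any of these settings.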
